A study of Homo sapiens with 6 samples.

Results

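The subject here is a set of 31 genes made up of targets of the transcription factor p53 and genes of the apoptosis machinery, measured by RNA sequencing in SH-SY5Y cells. Members were the rows of the count table whose symbol equals one of 31 listed symbols, and all 31 were found among its 19610 rows. SH-SY5Y is an established human neuroblastoma line, labelled wild type for genotype. In 3 libraries the cells had received SGC707, which inhibits PRMT3, an arginine methyltransferase known for its action on a ribosomal protein, and in 3 libraries they had received DMSO, the solvent. Each treatment has replicates A, B and C, and triplets of values below run in that order. The sources used here state neither dose nor duration nor whether the replicates were separate cultures, and the spread behind each p-value may therefore be technical.

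p53 is a DNA-binding factor that is held at a low level by MDM2, a ubiquitin ligase that p53 itself induces, and by the related protein MDM4. When DNA is damaged or ribosome assembly is disturbed, p53 accumulates and induces genes of cell cycle arrest, DNA repair, metabolism and apoptosis. Apoptosis through the mitochondrion is set by the balance within the BCL2 family, in which BH3-only proteins such as PUMA and NOXA release the pore-forming BAX and BAK from inhibitors such as BCL2, BCL-XL and MCL1. Neuroblastoma lines are widely used to study MDM2 inhibitors.

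The libraries differed in ways that touch every result below. Total counts were 11658728 to 12127187 with SGC707 and 11863696 to 15437602 with DMSO, and counts on nuclear genes were 7559322 to 8999358 with SGC707 and 6066305 to 6327895 with DMSO. Mitochondrially encoded genes took 24.3% to 37.7% of counts with SGC707 and 46.7% to 60.7% with DMSO. SGC707 C was set apart by base composition. Across genes, its deviation from the mean over libraries had a Spearman correlation of -0.76 with transcript GC content. SGC707 A had 0.52 and SGC707 B had 0.34, and DMSO A, B and C had 0.23, 0.17 and -0.12. DMSO C minus the mean of DMSO A and B leaned the same way as SGC707 C. Its correlation with GC content was -0.25 across all tested nuclear genes and -0.49 across the members. Of 15 adrenergic neuroblastoma markers, 14 averaged at least 1 normalised CPM (CPM, the count over the library size scaled by its TMM factor, set to the usual common total) and TH, the rate-limiting enzyme of catecholamine synthesis, had 0 counts in all 6 libraries. The summed level of these markers was 4521 to 4958 normalised CPM with SGC707 and 5487 to 6674 with DMSO. Single markers went both ways. GATA3 stood at 365 to 379 with SGC707, against 627 to 936 with DMSO, and DDC at 86.4 to 95.9, against 74.45 to 82.45. STMN2, the largest part of the sum, stood at 1601 to 2583, against 2206 to 2382. Substrate-adherent or mesenchymal markers summed to 184.6 to 217.7 with SGC707 and 192.6 to 212.8 with DMSO. Fibroblast markers summed to 74.4 to 104.7 and 97.5 to 98.6. The part of these levels in the results was not tested. In such bulk samples fewer cells of a type and less RNA per cell cannot be told apart. Of 4 immune markers, PTPRC and CD3E had 0 counts in every library, while CD14 and CD68 had 37 and 70 counts over the 6 libraries together.

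Promoter sequences were looked up for the members, since p53 acts by binding a DNA element made of paired sites of 10 bases, called half-sites. RefSeq windows of 300 bases (GRCh38.p14, 250 bases before to 50 after a transcript start) were found for 25 members, some with more than 1 start, giving 37 windows; MCL1, TP53INP1, GADD45A, RRM2B, PHLDA3 and TNFRSF10B had no entry. A match to the p53 half-site consensus, which reads the same on both strands, stood in windows of 7 of the 25 members (28.0%), against 8.06% of all 27305 genes in the table. Pairs of half-sites were sought with at most 2 mismatches in all and at most 13 bases between them. No mismatch was allowed in the core of either half-site, which reads C, A or T, A or T, G. Such a pair stood in windows of 3 members (12.0%), DDB2, AEN and FAS, against 1.81% of all genes. A match is a description of these letters, not evidence of binding, and many p53 elements of these genes lie outside such windows. The windows of DDB2 and RPS27L are shown whole, since DDB2 holds the only member pair without a mismatch and RPS27L had the smallest p-value of the set. The 60-base stretches show the other members with a half-site. Capitals mark the half-sites, and all are written 5′ to 3′ on the strand of the gene.
DDB2, chr11:47214724-47215023, plus strand: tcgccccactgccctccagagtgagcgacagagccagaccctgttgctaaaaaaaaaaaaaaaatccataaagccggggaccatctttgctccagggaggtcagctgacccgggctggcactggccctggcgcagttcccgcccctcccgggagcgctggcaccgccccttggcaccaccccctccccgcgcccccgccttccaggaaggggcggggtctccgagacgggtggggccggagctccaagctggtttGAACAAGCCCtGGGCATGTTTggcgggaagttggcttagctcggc
RPS27L, chr15:63157428-63157727, minus strand: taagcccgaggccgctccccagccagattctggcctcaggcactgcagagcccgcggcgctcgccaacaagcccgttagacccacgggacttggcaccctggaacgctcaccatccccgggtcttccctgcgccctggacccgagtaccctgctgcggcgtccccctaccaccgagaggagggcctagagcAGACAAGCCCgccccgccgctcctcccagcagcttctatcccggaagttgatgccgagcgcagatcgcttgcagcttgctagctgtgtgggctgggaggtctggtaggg
AEN, chr15:88621285-88621344, plus strand: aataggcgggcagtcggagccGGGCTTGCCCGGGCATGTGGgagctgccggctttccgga
FDXR, chr17:74872972-74873031, minus strand: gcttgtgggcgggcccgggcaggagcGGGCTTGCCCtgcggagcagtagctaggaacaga
BAK1, chr6:33580316-33580375, minus strand: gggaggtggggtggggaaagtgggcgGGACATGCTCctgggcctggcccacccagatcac
FAS, chr10:88991288-88991347, plus strand: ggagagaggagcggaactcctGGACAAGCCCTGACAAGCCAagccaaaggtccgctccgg
SESN1, chr6:109009004-109009063, minus strand: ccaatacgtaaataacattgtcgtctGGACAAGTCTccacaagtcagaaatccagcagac
In DDB2 the half-sites lie just after the transcript start, 1 base apart. In AEN and FAS the capitals are a pair with no base between the half-sites, of which 1 fits the consensus and the other holds the 2 mismatches. MDM2 has 4 windows, belonging to an outer and an inner promoter, and none holds a half-site that fits at every base. The inner one, from which p53 is known to drive MDM2, is shown because MDM2 had the largest negative fold change of the set. In it, 2 adjoining stretches would meet the limit of 2 mismatches, but 1 of these falls in the core, so the pair was not counted. A window without capitals may therefore still hold a p53 element.
MDM2, chr12:68808767-68809066, plus strand: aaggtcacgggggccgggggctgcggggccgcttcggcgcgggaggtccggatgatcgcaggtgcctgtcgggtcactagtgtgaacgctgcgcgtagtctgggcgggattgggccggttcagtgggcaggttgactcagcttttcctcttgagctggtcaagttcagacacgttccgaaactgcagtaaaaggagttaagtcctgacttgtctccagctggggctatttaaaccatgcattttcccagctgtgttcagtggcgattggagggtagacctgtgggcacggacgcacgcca

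No member passed the test. In edgeR's quasi-likelihood test, 0 of the 30 tested members had an adjusted p under 0.05 over the 12196 genes tested, where 0.0082% of all tested genes were called higher and 0.0164% lower. FAS was left out by the filter on low counts. At an unadjusted p under 0.05 there were 5 members with higher values in SGC707 cells (RPS27L, TP53INP1, APAF1, TNFRSF10B and RRM2B), beside 5.62% of all tested genes, and 1 with lower values (MDM2), beside 7.13%. The 3 SGC707 libraries lay above the 3 DMSO libraries in 9 members, beside 10.8% of all tested genes, and below them in 0 members, beside 9.78%. The 9 were RPS27L, TP53INP1, APAF1, RRM2B, BCL2, MCL1, PMAIP1, SESN1 and XPC. Log2 fold changes were positive in 20 members and negative in 10, with a median of 0.28 and quartiles of -0.07 and 0.44, against a median of 0.02 and quartiles of -0.23 and 0.25 over all tested genes. Without SGC707 A the median was 0.08, without SGC707 B it was 0.19, and over the other fits with 1 library left out it was 0.23 to 0.31. The SGC707 libraries were not alike in this. The members' median deviation from the mean over libraries, in log2 CPM, was 0.15, 0.14 and -0.13 with SGC707. It was -0.15, -0.09 and -0.06 with DMSO. Relative to the DMSO mean, the member median was 0.25 for the mean of SGC707 A and B and 0.05 for SGC707 C. Positive fold changes made up 52.8% of all tested genes. With scaling to library totals alone, mitochondrial counts included, the members had a median of 0.95 and all tested genes one of 0.69, and 11 members were then called higher, beside 21.1% of all tested genes, and 0 lower, beside 0.254%.

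**Figure D1:**
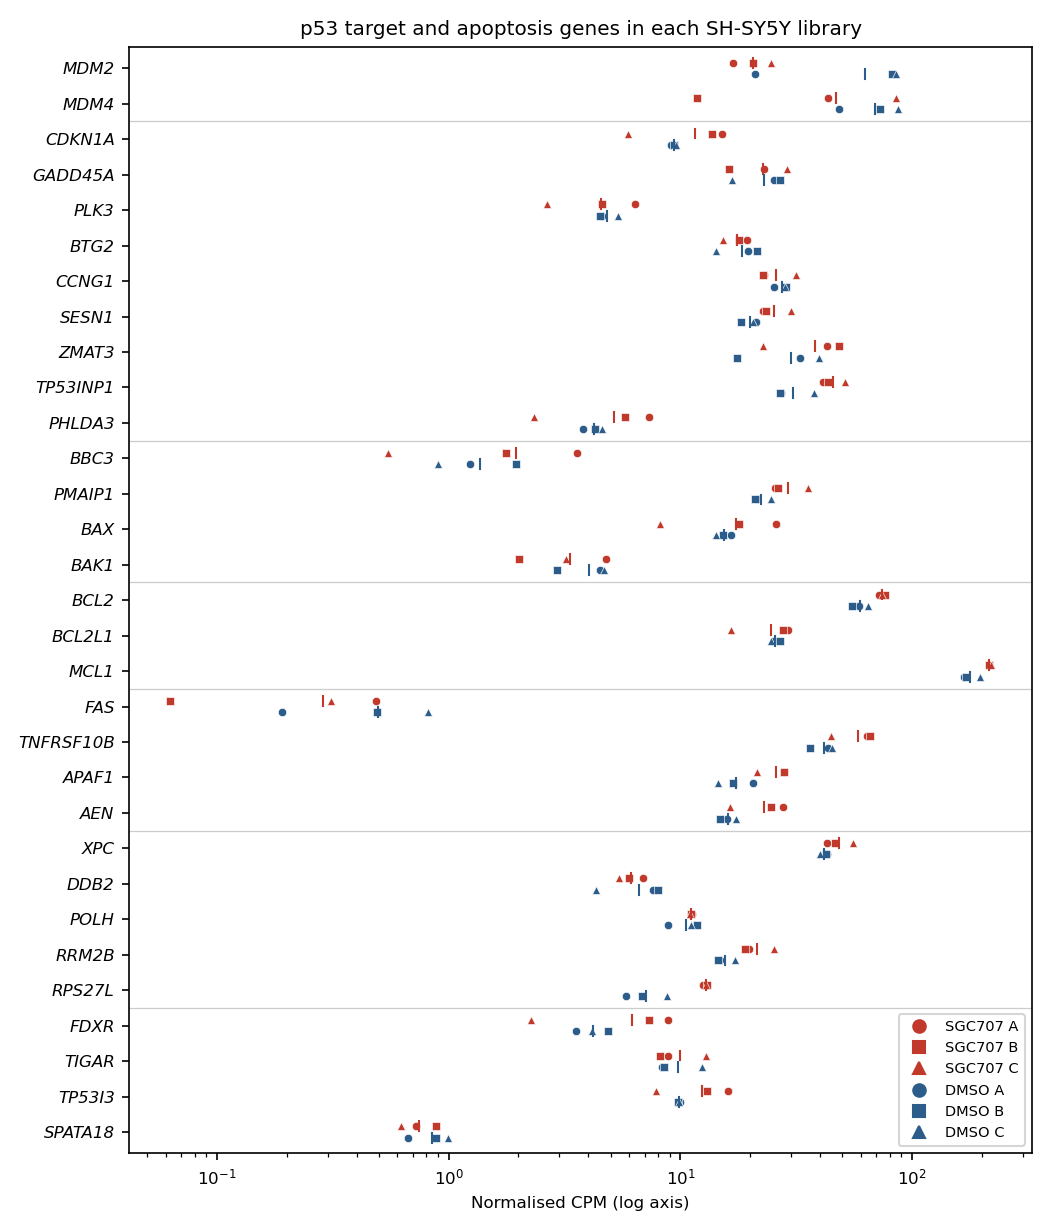
Normalised CPM (x axis, log scale) of the 31 genes in each library, with SGC707 in red above DMSO in blue, symbols for replicates A, B and C, and short vertical bars at the group means. Lines separate the roles. MDM2 has DMSO B and C at 82.3 and 84.8 and the other 4 libraries between 16.9 and 24.5.

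**Figure D2:**
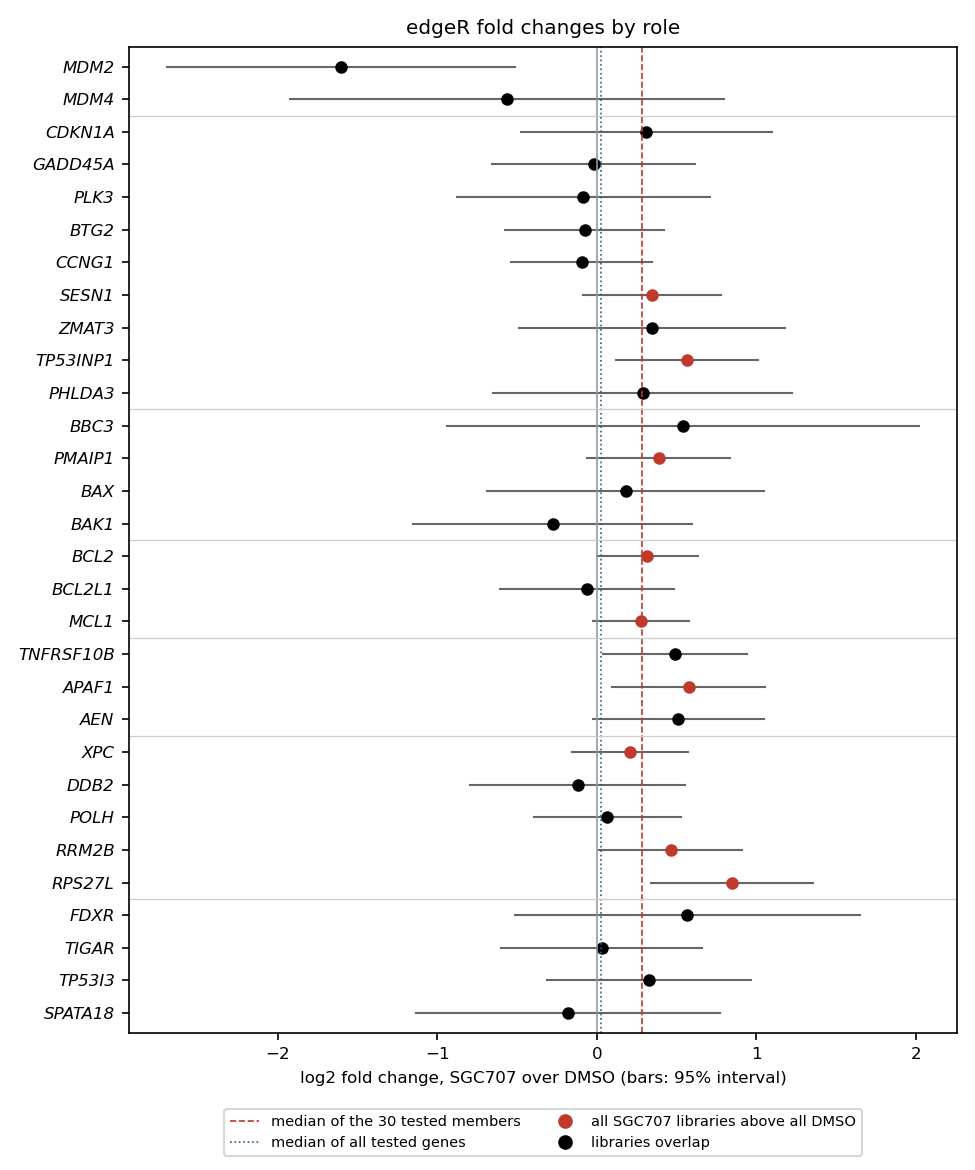
Log2 fold changes of SGC707 over DMSO with 95% intervals from edgeR for the 30 tested members, ordered by role, with the member median (0.28, dashed) and the median of all tested genes (0.02, dotted). Red points are the 9 members whose SGC707 libraries all lie above the DMSO libraries.

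Both inhibitors of p53 had negative log2 fold changes, and in each 1 library stood far from others of its group. MDM2 (chromosome 12, 68808176 to 68850686), the ubiquitin ligase that targets p53, stood at 16.9, 20.6 and 24.5 normalised CPM with SGC707, against 21.1, 82.3 and 84.8 with DMSO. DMSO A fell among the SGC707 libraries, while DMSO B and C stood far above all of them. The group means were 20.6 ± 3.84 with SGC707 and 62.7 ± 36.1 with DMSO (SD, n = 3), giving a log2 fold change of -1.60 (SE 0.47, 95% interval -2.70 to -0.51, adjusted p = 0.266 by edgeR). Without DMSO A the log2 fold change was -2.02 (SE 0.22, adjusted p = 0.157 by edgeR), and over the fits that each left out 1 of the other libraries it was -1.75 to -1.33. DESeq2 on all 6 libraries called MDM2 lower (adjusted p = 0.0165), the only member it called, beside 1.58% of all genes called lower and 0.308% higher. MDM2 exons share 439 bases with a processed pseudogene on the same strand and 785 with an antisense gene. The sources used here do not say whether counting used strand. Other members overlap other genes as well. TIGAR shares 1711 exonic bases with the protein-coding AC008012.1 and PHLDA3 shares 598 with AC096677.2, both on the same strand. BCL2L1 shares 1224 with the antisense gene ABALON.

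MDM4 (chromosome 1, 204516379 to 204558120), which binds and inhibits p53 and pairs with MDM2, stood at 43.5, 11.8 and 85.2 normalised CPM with SGC707, against 48.2, 72.6 and 86.6 with DMSO. SGC707 B was the lowest library, at 0.27 times the lower of the other SGC707 libraries, and the groups overlapped. The log2 fold change was -0.56 (95% interval -1.93 to 0.80, adjusted p = 0.724 by edgeR), and it was -0.10 without SGC707 B and -1.33 without SGC707 C.

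Among the 9 genes of cell cycle arrest and growth control, 5 had positive and 4 had negative log2 fold changes. CDKN1A (chromosome 6, 36676460 to 36687339) encodes p21, the inhibitor of cyclin-dependent kinases through which p53 halts the cell cycle. It stood at 15.1, 13.7 and 5.92 normalised CPM with SGC707, against 9.15, 9.38 and 9.54 with DMSO. SGC707 A and B were above every DMSO library and SGC707 C was below every DMSO library. The log2 fold change was 0.31 (95% interval -0.48 to 1.10, adjusted p = 0.736 by edgeR), with 0.07 without SGC707 A, 0.17 without SGC707 B and 0.62 without SGC707 C.

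TP53INP1 (chromosome 8, 94925972 to 94949411), a stress protein linked to p53 phosphorylation and autophagy, stood at 41.2, 43.4 and 51.6 normalised CPM with SGC707, against 27.3, 27.0 and 37.8 with DMSO. All SGC707 libraries were above all DMSO libraries, and the log2 fold change was 0.56 (SE 0.19, 95% interval 0.12 to 1.01, adjusted p = 0.306 by edgeR). SESN1 (chromosome 6, 108986437 to 109094819), a sestrin that restrains mTORC1, stood at 22.7, 23.4 and 30.1 with SGC707 and at 21.2, 18.3 and 20.5 normalised CPM with DMSO. Its groups did not overlap, but the lowest SGC707 library was only slightly above the highest DMSO library, and the log2 fold change of 0.35 had an interval of -0.08 to 0.78 (adjusted p = 0.489 by edgeR). Without SGC707 C it was 0.20.

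The other 6 genes of this role gave log2 fold changes of -0.09 to 0.35, with edgeR adjusted p from 0.724 to 0.984 and overlapping libraries in each. ZMAT3, an RNA-binding protein that acts in p53-dependent splicing and RNA decay, had 0.35, and PHLDA3, an inhibitor of AKT, had 0.29. Values near 0 were found for GADD45A (-0.02), a stress sensor, BTG2 (-0.08), an antiproliferative cofactor of mRNA deadenylation, PLK3 (-0.09), a stress-responsive kinase, and CCNG1 (-0.09), cyclin G1. ZMAT3 had SGC707 A and B at 43.0 and 48.3 normalised CPM and SGC707 C at 22.8, against 17.5 to 39.6 in the DMSO libraries.

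Of the 4 genes that promote outer membrane permeabilisation, 3 had positive log2 fold changes. PMAIP1 (chromosome 18, 59899948 to 59904306) encodes NOXA, a BH3-only protein that binds MCL1. It stood at 25.7, 26.4 and 35.6 normalised CPM with SGC707, against 21.4, 21.01 and 24.7 with DMSO, all SGC707 libraries being above all DMSO libraries. The log2 fold change was 0.39 (95% interval -0.06 to 0.83, adjusted p = 0.457 by edgeR), and 0.22 without SGC707 C.

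BBC3 (chromosome 19, 47220822 to 47232766) encodes PUMA, a BH3-only protein that binds all the BCL2-type inhibitors, and was sparse, with 59, 28 and 7 reads with SGC707 and 13, 20 and 10 with DMSO. That corresponds to 3.56, 1.76 and 0.545 normalised CPM with SGC707 and 1.24, 1.95 and 0.900 with DMSO. SGC707 held both the highest and the lowest library, and the log2 fold change of 0.54 had an interval of -0.94 to 2.02 (adjusted p = 0.755 by edgeR), turning to -0.21 without SGC707 A. BAX (chromosome 19, 48954815 to 48961798), one of the pore-forming effectors, stood at 26.0, 18.0 and 8.18 normalised CPM with SGC707, against 16.6, 15.2 and 14.3 with DMSO. Its log2 fold change of 0.18 (95% interval -0.69 to 1.05, adjusted p = 0.879 by edgeR) was -0.23 without SGC707 A and 0.51 without SGC707 C. BAK1 (chromosome 6, 33572547 to 33580293), the other effector, stood at 4.77, 2.01 and 3.19 with SGC707 and at 4.48, 2.93 and 4.68 normalised CPM with DMSO, with a log2 fold change of -0.28 (95% interval -1.15 to 0.60, adjusted p = 0.793 by edgeR), and -0.01 without SGC707 B. In BAX and BAK1 the groups overlapped.

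Of the 3 BCL2-type inhibitors, BCL2 and MCL1 had SGC707 libraries above all DMSO libraries. MCL1 (chromosome 1, 150574551 to 150579738), a short-lived inhibitor, had the highest level per length of all 31 genes, 54.9 normalised CPM per kilobase of the longest transcript with SGC707 and 45.3 with DMSO. It stood at 214, 215 and 219 normalised CPM with SGC707, against 167, 171 and 197 with DMSO. These groups did not overlap and the SGC707 libraries lay close together, with a log2 fold change of 0.28 (95% interval -0.03 to 0.58, adjusted p = 0.430 by edgeR). BCL2 (chromosome 18, 63123346 to 63320128), the founding member of the family, stood at 72.1, 76.7 and 73.8 normalised CPM with SGC707, against 59.1, 55.1 and 64.5 with DMSO. All SGC707 libraries were above all DMSO libraries, and the log2 fold change was 0.32 (SE 0.14, adjusted p = 0.393 by edgeR), with 0.26 to 0.38 over the fits without 1 library. BCL2L1 (chromosome 20, 31664452 to 31723989), which encodes BCL-XL, stood at 29.2, 27.7 and 16.6 normalised CPM with SGC707, against 25.3, 27.0 and 24.6 with DMSO. SGC707 C was again below every DMSO library, and the log2 fold change of -0.06 (95% interval -0.61 to 0.48, adjusted p = 0.937 by edgeR) was 0.15 without SGC707 C.

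Ratios within a library do not depend on scaling between libraries, but a library's trend with GC content can shift them. BAX has 58.9% GC and BCL2 has 45.6%. In log2 CPM, SGC707 C minus the mean of SGC707 A and B was -1.38 for BAX and -0.01 for BCL2. The part of this trend in the ratios was not tested. The BAX to BCL2 ratio, per transcript length, was 1.98, 1.29 and 0.609 with SGC707, against 1.54, 1.52 and 1.22 with DMSO. The ratio of BAX and BAK1 to BCL2, BCL2L1 and MCL1 together was 0.283, 0.188 and 0.104 with SGC707, against 0.237, 0.205 and 0.186 with DMSO. In each ratio SGC707 held the highest and the lowest library. The ratio of the BH3-only genes PMAIP1 and BBC3 to the same inhibitors was 0.201, 0.192 and 0.258 with SGC707 and 0.194, 0.193 and 0.193 with DMSO, so that SGC707 C stood out and SGC707 B was level with DMSO.

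Among the death receptor and apoptosome genes, with which the nuclease gene AEN was grouped, the 3 tested members had positive log2 fold changes of 0.49 to 0.57. APAF1 (chromosome 12, 98645141 to 98735433), the scaffold that assembles caspase-9 into the apoptosome, stood at 28.0, 27.9 and 21.4 normalised CPM with SGC707, against 20.5, 16.9 and 14.6 with DMSO. The groups did not overlap, although SGC707 C was close to DMSO A, and the log2 fold change was 0.57 (SE 0.21, adjusted p = 0.317 by edgeR). APAF1 shares 750 exonic bases with ANKS1B on the opposite strand, so part of its reads may belong to that gene. TNFRSF10B (chromosome 8, 23020133 to 23069179), the TRAIL receptor DR5, stood at 63.9, 65.8 and 44.8 normalised CPM with SGC707, against 43.4, 36.2 and 44.9 with DMSO. SGC707 A and B were well above the DMSO range and SGC707 C was within it, with a log2 fold change of 0.49 (SE 0.19, adjusted p = 0.358 by edgeR). AEN (chromosome 15, 88621296 to 88632282), an apoptosis-enhancing nuclease whose promoter pair is shown above, stood at 27.7, 24.5 and 16.4 normalised CPM with SGC707, against 15.9, 14.8 and 17.5 with DMSO. Its log2 fold change was 0.51 (SE 0.23, adjusted p = 0.414 by edgeR), with SGC707 C inside the DMSO range and 0.35 without SGC707 A beside 0.70 without SGC707 C. FAS (chromosome 10, 88990582 to 89015785), the receptor of FAS ligand, had 8, 1 and 4 reads with SGC707 and 2, 5 and 9 with DMSO. It was left out by the filter on low counts and so was not tested in the main fit.

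Of the 5 genes grouped under DNA repair and nucleotide supply, 4 had positive log2 fold changes. RPS27L (chromosome 15, 63125872 to 63158021), placed in this group although it is a ribosomal protein paralog, had the smallest p-value of the whole set. RPS27L, a ribosomal protein paralog that is a direct p53 target, stood at 12.5, 13.1 and 12.9 normalised CPM with SGC707, against 5.81, 6.84 and 8.73 with DMSO. All SGC707 libraries were above all DMSO libraries and close to each other, SGC707 C included. The means were 12.8 ± 0.298 with SGC707 and 7.13 ± 1.48 with DMSO (SD, n = 3), giving a log2 fold change of 0.85 (SE 0.22, 95% interval 0.34 to 1.36, adjusted p = 0.243 by edgeR), which ranked 251 by p among the tested genes. Over the fits without 1 library it was 0.72 to 1.02. Reads shared with its paralog RPS27 or with pseudogenes could change its count.

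RRM2B (chromosome 8, 102204502 to 102239118), the p53-induced subunit of ribonucleotide reductase, stood at 19.8, 19.0 and 25.4 normalised CPM with SGC707, against 14.9, 14.5 and 17.2 with DMSO. Its groups did not overlap, with a log2 fold change of 0.46 (SE 0.20, adjusted p = 0.384 by edgeR). XPC (chromosome 3, 14145147 to 14178783), which recognises damage in nucleotide excision repair, stood at 43.0, 46.3 and 55.5 normalised CPM with SGC707, against 42.8, 42.3 and 40.2 with DMSO. SGC707 A and DMSO A were nearly level, and the log2 fold change was 0.21 (95% interval -0.15 to 0.57, adjusted p = 0.608 by edgeR), with 0.09 without SGC707 C. XPC shares exonic bases with 3 genes on the opposite strand, 635 with the antisense gene AC093495.1, 413 with AC090004.1 and 318 with LSM3. DDB2, the UV damage sensor whose promoter holds the pair without a mismatch, stood at 6.88, 5.97 and 5.45 normalised CPM with SGC707, against 7.63, 8.01 and 4.32 with DMSO. That is a log2 fold change of -0.12 (95% interval -0.79 to 0.55, adjusted p = 0.897 by edgeR), and DDB2 is described with its values because of its promoter. POLH, the translesion polymerase eta, had 0.06 (adjusted p = 0.922 by edgeR).

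The 4 genes of redox and mitochondrial metabolism had edgeR adjusted p from 0.645 to 0.973 and overlapping libraries. FDXR, a mitochondrial reductase that supplies electrons for iron-sulphur cluster and steroid synthesis, stood at 8.88, 7.35 and 2.26 normalised CPM with SGC707, against 3.53, 4.89 and 4.14 with DMSO, giving a log2 fold change of 0.57 (95% interval -0.52 to 1.65). SGC707 A and B were above all DMSO libraries and SGC707 C was below them, the pattern of CDKN1A. TP53I3, a quinone oxidoreductase, showed it as well, with 16.1, 13.1 and 7.87 normalised CPM with SGC707 and 9.77 to 9.91 in the DMSO libraries, giving a log2 fold change of 0.33. TIGAR, a phosphatase that lowers glycolytic flux, had 0.03, and SPATA18, a regulator of mitochondrial quality, had -0.18 on 7 to 14 reads per library. The FDXR and TP53I3 values are given because of this pattern.

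The split between SGC707 C and the other SGC707 libraries followed the GC content of the members' transcripts. On the log2 CPM scale SGC707 C was below the mean of SGC707 A and B in 12 of the 15 members with at least 50% GC, with a median difference of -0.77, and in 5 of the 15 members with less GC, with a median of 0.29. Over all tested nuclear genes the same medians were -0.62 and 0.34. The Spearman correlation between this difference and GC content was -0.67 across the 30 members and -0.77 across 12161 tested nuclear genes. Genes of one library share its depth and composition, so these correlations are descriptions. The 6 members with the most negative differences were BBC3 (-1.93), FDXR (-1.77), PHLDA3 (-1.42), BAX (-1.38), CDKN1A (-1.26) and ZMAT3 (-0.99), of which ZMAT3 alone has under 50% GC. Members of low GC content leaned the other way, with TIGAR at 0.60, CCNG1 at 0.47 and PMAIP1 at 0.45, and MDM4, for which SGC707 B was low, stood highest at 1.90.

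**Figure D3:**
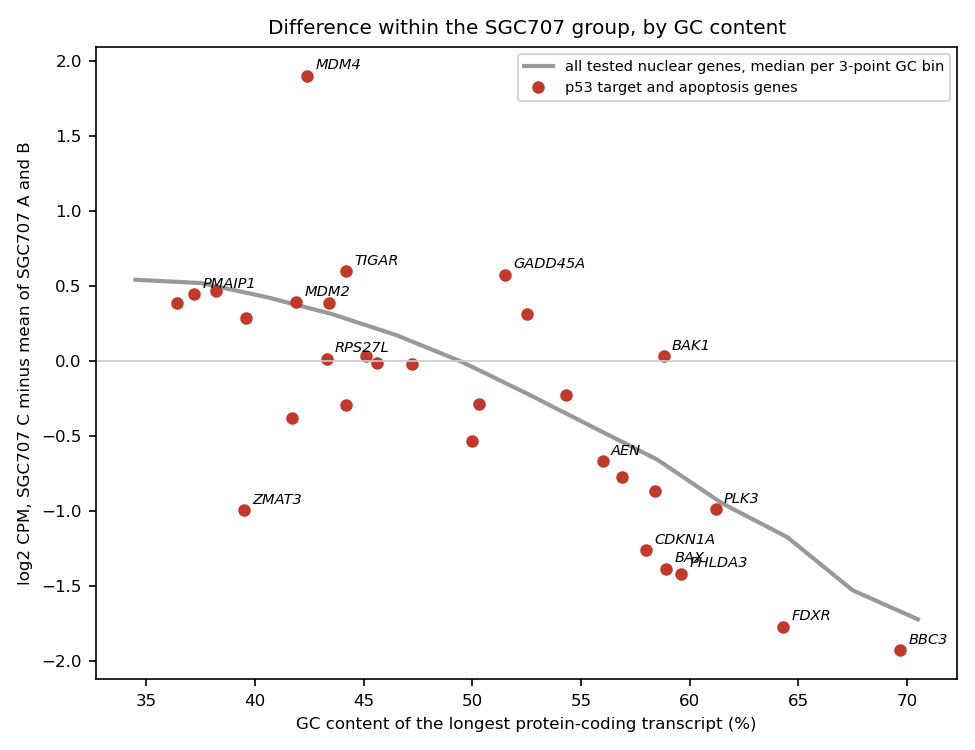
Difference in log2 CPM between SGC707 C and the mean of SGC707 A and B (y axis) against the GC content of the longest protein-coding transcript (x axis, percent) for the 30 tested members, with the median of all tested nuclear genes per GC bin as a grey line. BBC3, FDXR, PHLDA3, BAX and CDKN1A lie between -1.93 and -1.26, and MDM4 lies at 1.90, far above the line.

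Fits without SGC707 C and with the trend removed are set beside the fit on all 6 libraries. Without SGC707 C, edgeR called 4 members higher at an adjusted p under 0.05, beside 3.73% of all 12392 genes tested in that fit, and 0 lower, beside 5.53%. These were TNFRSF10B (log2 fold change 0.64, adjusted p = 0.0336 by edgeR), AEN (0.70, adjusted p = 0.0345 by edgeR), FDXR (0.95, adjusted p = 0.0444 by edgeR) and APAF1 (0.69, adjusted p = 0.0474 by edgeR). CDKN1A (0.62, adjusted p = 0.0506 by edgeR) and RPS27L (0.84, adjusted p = 0.0517 by edgeR) lay just outside the threshold, and 12 members had an unadjusted p under 0.05 with higher values, beside 14.5% of all genes tested in that fit. The group then holds 2 SGC707 libraries against 3 of DMSO. Without SGC707 C a trend in the other direction stayed. The mean of SGC707 A and B minus that of DMSO, in log2 CPM, correlated with GC content (Spearman). The value was 0.23 across the members and 0.255 across all tested nuclear genes. With all 6 libraries and each library's trend on GC content and transcript length removed, 0 members passed, beside 0.0738% of all tested genes called higher and 0.435% lower, and 10 had an unadjusted p under 0.05 with higher values, beside 11.1% of all tested genes. RPS27L had the smallest adjusted p in that fit (log2 fold change 0.87, SE 0.19, adjusted p = 0.0699 by edgeR), followed by TP53INP1 (0.56, adjusted p = 0.0858 by edgeR) and AEN (0.52, adjusted p = 0.0875 by edgeR). After the correction CDKN1A stood at 12.6, 12.5 and 8.32 CPM with SGC707 and at 8.93, 9.29 and 9.80 with DMSO, so SGC707 C still lay below the DMSO libraries. For FDXR and TP53I3 it did not. FDXR stood at 6.56, 6.41 and 4.425 corrected CPM with SGC707, against 3.31 to 4.64 in DMSO. TP53I3 stood at 13.3, 11.9 and 11.1 with SGC707, above the 9.7 to 10.2 in DMSO. AEN stood at 24.6, 23.0 and 20.6 corrected CPM with SGC707, against 14.5 to 17.7 in DMSO, where its groups no longer overlapped. With the trend removed and SGC707 C left out, 4 members were called higher, beside 2.42% of all genes tested in that fit, and 0 lower, beside 5.21%. These were RPS27L, AEN, TNFRSF10B and APAF1. FDXR was no longer called there, with a log2 fold change of 0.68 (adjusted p = 0.0851 by edgeR). CDKN1A had 0.44 (adjusted p = 0.0914 by edgeR).

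**Figure D4:**
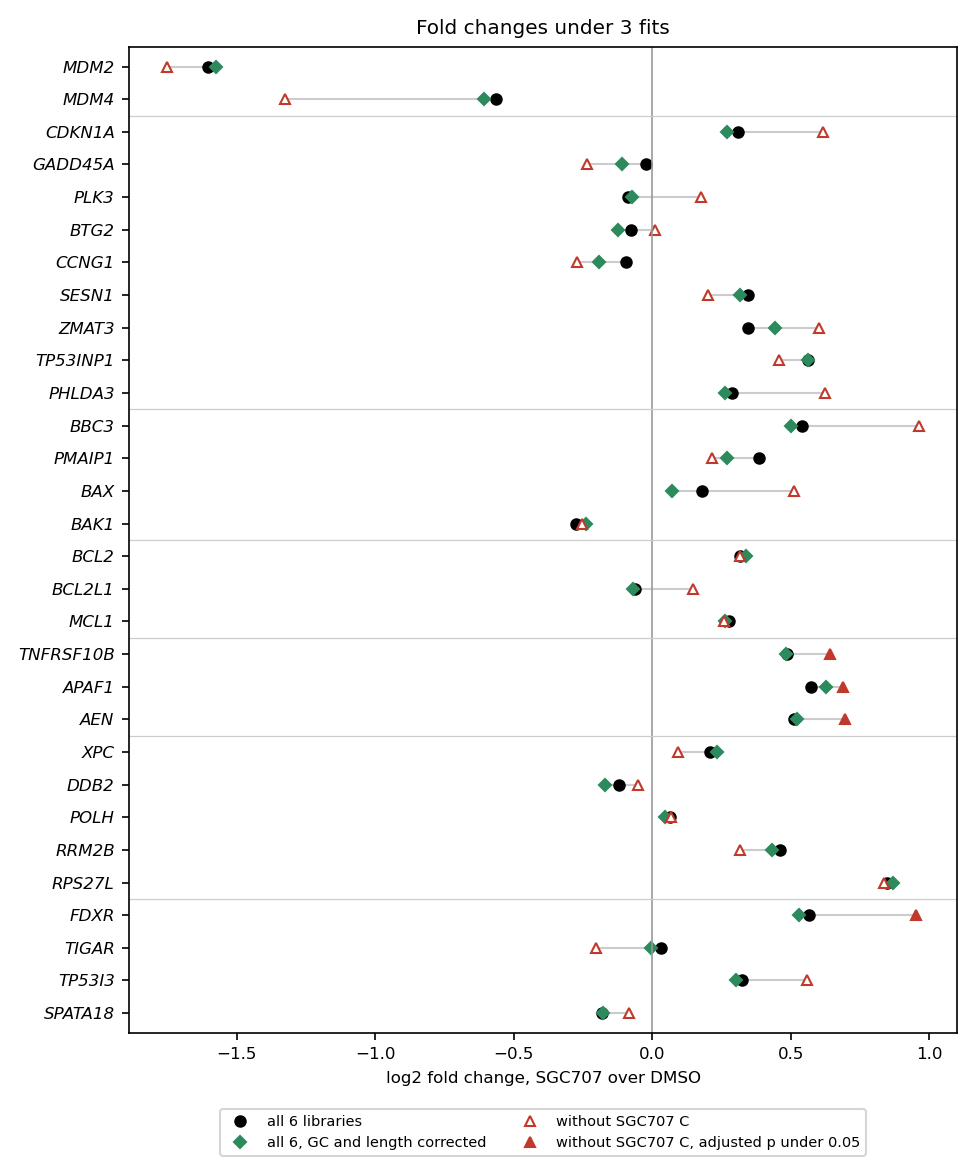
Log2 fold changes of SGC707 over DMSO (x axis) for the 30 tested members in 3 fits: all 6 libraries (black circles), all 6 with each library's GC and length trend removed (green diamonds), and without SGC707 C (red triangles, filled at an adjusted p under 0.05). The filled triangles are TNFRSF10B, APAF1, AEN and FDXR, while RPS27L stays between 0.84 and 0.87 in all 3.

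Other genes of the pathway, from 6 lists, also had no member past the threshold in the fit on all 6 libraries. Among 38 tested genes of p53 regulation, log2 fold changes were positive in 23 and negative in 15 (median 0.06, against 0.02 for all tested genes), with 3 higher and 7 lower at an unadjusted p under 0.05, beside 5.62% higher and 7.13% lower over all tested genes. The lowest p-values belonged to TP53BP2, whose product ASPP2 steers p53 towards apoptotic targets, to the p53 relative TP73 and to the acetyltransferase gene EP300. TP53BP2 stood at 58.8, 65.7 and 74.5 normalised CPM with SGC707, against 125, 95.8 and 118 with DMSO (log2 fold change -0.77, SE 0.17, adjusted p = 0.190 by edgeR). TP73 had a log2 fold change of -1.07 (adjusted p = 0.190 by edgeR) and EP300 one of -0.98 (adjusted p = 0.202 by edgeR). In all 3 genes, picked by p, the SGC707 libraries were below the DMSO libraries. Over the 38 genes, SGC707 lay above DMSO without overlap in 7 and below in 7. The shares over all tested genes were 10.8% and 9.78%.

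Among 46 tested further p53 targets, 24 were positive and 22 negative (median 0.05), with 2 higher and 4 lower at an unadjusted p under 0.05, near the 5.62% and 7.13% of all tested genes. The smallest p-values were those of TP53I11 (log2 fold change -1.22, adjusted p = 0.202 by edgeR), the mRNA decapping gene DCP1B (-0.74, adjusted p = 0.273 by edgeR) and the actin regulator CYFIP2 (-0.44, adjusted p = 0.278 by edgeR). All had SGC707 below DMSO. Over the 46 genes, SGC707 lay above DMSO without overlap in 2 and below in 6, beside 10.8% and 9.78% of all tested genes. Among 50 cell cycle genes that p53 is known to repress through p21 and the DREAM complex, 22 were positive and 28 negative (median -0.05). At an unadjusted p under 0.05, 3 were higher and 3 lower, also near the 5.62% and 7.13% of all tested genes. MYBL2 (-0.60, adjusted p = 0.247 by edgeR), KIF20A (-0.45, adjusted p = 0.276 by edgeR) and TYMS (-0.47, adjusted p = 0.297 by edgeR) led that list.

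In the apoptosis lists, 15 of 17 tested caspase, apoptosome and inhibitor genes were positive (median 0.24), with 3 higher and 0 lower at an unadjusted p under 0.05. Over all tested genes 52.8% were positive, 5.62% were higher at that level and 7.13% were lower. AIFM1, a mitochondrial flavoprotein that can move to the nucleus in cell death, stood at 22.5, 24.8 and 28.97 normalised CPM with SGC707, against 13.3, 14.2 and 18.4 with DMSO (log2 fold change 0.73, adjusted p = 0.262 by edgeR). CYCS, cytochrome c, the ligand of APAF1, had 0.53 (adjusted p = 0.285 by edgeR), and in both genes the SGC707 libraries were above the DMSO libraries. Over the 17 genes, SGC707 lay above DMSO without overlap in 3 and below in 0, beside 10.8% and 9.78% of all tested genes. Of 11 other BCL2 family genes 7 were positive (median 0.28), led by BCL2L13 (0.31, adjusted p = 0.481 by edgeR), BNIP3L (0.56, adjusted p = 0.496 by edgeR) and BMF (0.21, adjusted p = 0.675 by edgeR). Of 14 death receptor genes 4 were positive and 10 negative (median -0.11), led by the adaptor FADD (0.65, adjusted p = 0.355 by edgeR), the neurotrophin receptor NGFR (-0.60, adjusted p = 0.467 by edgeR) and TNFRSF21 (-0.42, adjusted p = 0.504 by edgeR). PRMT3, the target of the inhibitor, had 0.34 (adjusted p = 0.479 by edgeR), and since the inhibitor acts on the enzyme its mRNA does not check the labels.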

How the data were processed

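The authors deposited whole-number gene counts with no scaling between libraries. HISAT2, StringTie and GRCh38 are named per the submitters' processing notes, and no source used here gives versions, annotation, strand setting or the treatment of shared reads. The main test was that of edgeR 4.0.16 in R 4.3.3 (filterByExpr, TMM, glmQLFit with robust estimation, glmQLFTest) over all 12196 genes kept, with Benjamini-Hochberg adjustment and a threshold of 0.05. Normalised CPM used the TMM factors, and standard errors were the log2 fold change over the square root of F. GENCODE 29 gave coordinates and the GC content and length of each gene's longest coding transcript (19271 rows matched by symbol, 246 by synonym, 93 unmatched). RefSeq gave the promoters.

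The members, lists and tests were chosen with earlier results of these data known. Values per library are given for CDKN1A, MDM2, MDM4, BBC3, PMAIP1, BAX, BAK1, BCL2, BCL2L1, MCL1 and the 8 other members with the smallest p, and for other genes by the 3 smallest p per list; some genes that this rule names are not reported here. DDB2, FDXR, TP53I3 and ZMAT3, and the genes of the closing section, were added after their values were seen, as was the GC limit of 50%. Alternatives were RLE factors, library totals, dropping the filter, a filter at 1 CPM in 3 libraries and a mean of 50 counts, limma-voom (limma 3.58.1), DESeq2 1.42.0, each library left out, the replicate letter as a block, a GC and length correction (lowess, span 0.3, mean count 20 or more, as offsets) and no mitochondrial genes. The correction without SGC707 C was chosen after seeing the data. The procedure was tested on simulated data. Replicates differed beyond counting noise (lowest chi-square over its degrees of freedom 9.53), so each was counted as a sample; this does not tell separate cultures from repeat libraries of a culture. Figures were drawn with matplotlib 3.10.9.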

Additional observations from a re-analysis of the deposited data

How the results depend on the processing

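The count of members past the threshold was 0 higher and 0 lower in edgeR with RLE factors, with no filter, with the stricter filter, after the GC and length correction and without mitochondrial genes, and 0 in limma-voom. In these fits 0.0164% to 0.508% of all tested genes passed. At an unadjusted p under 0.05 the correction had 10 higher members, beside 11.1% of all tested genes. With library totals alone 11 members were higher and 0 lower, beside 21.3% of all tested genes past the threshold. The member median was then 0.95 where the median of all tested genes was 0.69. Beside that same 21.3%, 16 regulators of p53, 7 further p53 targets, 2 other BCL2 family genes, 6 caspase and apoptosome genes, 1 death receptor gene and 15 cell cycle genes passed. In that fit DDB2 (0.60), GADD45A (0.65), SPATA18 (0.49), PLK3 (0.62), BAK1 (0.37), BCL2L1 (0.65), CCNG1 (0.55) and BTG2 (0.64) turned positive. DESeq2 gave 0 higher and 1 lower member, with 4 regulators and 1 further p53 target past the threshold, beside 1.89% of all genes. The correction gave 1 regulator, beside 0.508% of all tested genes, with TIGAR at -0.003. Leaving out 1 library gave 0 to 4 higher members and 0 lower ones, with medians of 0.083 to 0.313; the 4 came without SGC707 C, with or without the correction. In the lists, of 38, 46, 17, 14 and 50 genes tested with all libraries, it gave 0 to 8 regulators, 0 to 5 further targets, 0 to 1 caspase gene, 0 to 1 death receptor gene and 0 to 9 cell cycle genes; the upper counts came without SGC707 C, where 9.26% of all tested genes passed (7.63% with the correction). Signs turned in these fits for BBC3 (-0.21 to 0.965 over these fits), BAX (-0.23 to 0.511) and PHLDA3 (-0.0504 at the low end), each negative without SGC707 A, GADD45A without SGC707 B (0.17), DMSO A (0.06) or DMSO B (0.10), TIGAR without SGC707 C (-0.20, and -0.12 with the correction), DMSO A (-0.07) or DMSO B (-0.06), PLK3 (-0.406 to 0.17), BCL2L1 (0.15) and BTG2 (0.01) without SGC707 C, BTG2 (0.0441) and DDB2 (0.0308, against -0.359 without DMSO C) without DMSO B, POLH (-0.0534, against 0.145 without DMSO B) without DMSO A, and SPATA18 (0.0028) with the correction and without SGC707 C. The cause of these changes was not tested.

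Whether the letters pair the libraries is not settled. The deviations of same-lettered libraries from their group means correlated at 0.08, -0.02 and 0.10, and those of differently lettered libraries at -0.11 to 0.10. Such small values over all genes cannot tell whether cultures were paired. Both C libraries differed from A and B of their group in the same direction with GC content. The Spearman correlations over all tested nuclear genes were -0.77 with SGC707 and -0.25 with DMSO. Whether this bears on pairing was not tested. With the replicate block 0 members passed (median 0.21, smallest edgeR adjusted p = 0.287), and 0 passed with the block and the correction (median 0.24). Depth limits FAS, SPATA18 and BBC3 most, since 0 counts would allow up to 0.181 to 0.293 normalised CPM, by counting error alone.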

Other observations

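MDM2 and MDM4 each had a gap between libraries of the same treatment. The MDM4 log2 fold change was -0.56 with SGC707 B and -0.10 without it, while that of MDM2 was -1.60 with DMSO A and -2.02 without it. Of 9335 tested genes whose mean count reached 100, DMSO A was below 0.4 times the lower of DMSO B and C in 36 genes (0.386%), MDM2 (0.256 times) among them, and SGC707 B was below 0.4 times the lower of SGC707 A and C in 22 genes (0.236%), MDM4 (0.270 times) among them. The longest transcripts of these genes had medians of 5104 and 4551 bases, against 3757 for all 9335.

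Among the 22 genes of the SGC707 B set, XIAP and BCL2L2 also belong to the apoptosis machinery. The set holds genes of other kinds too, such as RPL37A and HACD3. The share of apoptosis genes among the 9335 was not counted. XIAP, the caspase inhibitor, in replicates A, B and C stood at 40.0, 5.85 and 37.4 normalised CPM with SGC707, against 45.0, 10.8 and 25.6 with DMSO, so it was lowest in replicate B of each group. BCL2L2, which encodes the inhibitor BCL-W, stood at 29.2, 3.83 and 19.1 with SGC707 and at 11.3, 12.2 and 15.1 normalised CPM with DMSO. These genes were picked for their gaps, and no cause was tested.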
